A study of Homo sapiens with 12 samples.

Results

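Histone genes of the clustered families were taken as the rows of the deposited expression table whose symbol joins HIST, a cluster number and a histone class (H1, H2A, H2B, H3 or H4), without symbols that contain PS. The table listed 63 such genes among 28035. Testing was limited to genes whose mean across the 12 libraries reached 10 normalized reads, which left 29 of the 63 among 15990 tested genes, and the other 34 are described by their values alone. Of the tested members, 12 of 20 belong to class H2B, 7 of 15 to H2A, 4 of 10 to H3, 4 of 13 to H4 and 2 of 5 to the linker class H1. The tested H2B members HIST2H2BC and HIST2H2BD and the untested HIST2H2BB and HIST3H2BA are annotated as pseudogenes in GENCODE 29 and stay in all counts. By cluster, 22 of 47 belong to HIST1 on chromosome 6, 5 of 12 to HIST2 and 1 of 3 to HIST3 on chromosome 1, and the only HIST4 gene, HIST4H4 on chromosome 12, was tested.

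The samples were OVCAR-3 cells, an established epithelial line from a human ovarian adenocarcinoma, labelled as wild type and collected 6 h after treatment. The Combination cells received both Fusicoccin A (FC-A, a fungal compound known to stabilise 14-3-3 protein complexes) and interferon alpha (IFNa, an antiviral cytokine), the IFNa cells received the cytokine alone, the FC-A cells the compound alone, and the DMSO cells the solvent, with 3 libraries each. The sources used here state no doses. The labels do not say whether replicates were separate cultures, so p-values measure the spread between these libraries, which may be technical.

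Each library held 31181742 to 39529357 reads assigned to genes. The epithelial markers EPCAM (8335 to 9247 normalized reads) and PAX8 (17489 to 23234) were high in all libraries, and the fibroblast gene DCN was at 0 in all but 1 library, which had 1.90. The summed fibroblast list, which COL1A1 dominates, was 1533 to 2140 in Combination, 1366 to 1897 in IFNa, 911.9 to 1001 in FC-A and 773 to 859.8 in DMSO. The leukocyte sum was 233.2 to 312.8 in Combination, 193.8 to 300.1 in IFNa, 253.9 to 300.7 in FC-A and 240.4 to 275.6 in DMSO. The endothelial sum was 181.5 to 232.1 in Combination, 193.1 to 253.2 in IFNa, 253 to 341.2 in FC-A and 285.7 to 359.5 in DMSO. The part of these genes in the histone results was not tested.

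Most clustered histone genes are transcribed in S phase, when new DNA needs new nucleosomes. Their transcripts usually end in a short stem-loop that is bound by the stem-loop binding protein SLBP, and they carry no poly(A) tail. Some of these genes also give transcripts that run past the stem-loop to a polyadenylation signal, and libraries made from poly(A) RNA select for that form. The form that ends at the stem-loop was not measured as such here.

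The stem-loop is shown for 9 members that the comparisons turn on, because it marks where the usual transcript ends and how alike these genes are there. The letters are from GENCODE 29 transcripts (GRCh38), 5′ to 3′, with the match in capitals. The motif searched was GG, any 2 bases, CTTTT, any base, AG, any base and GCC.
HIST2H2BE: ctccaaaGGCTCTTTTCAGAGCCacccacc
HIST1H2BD: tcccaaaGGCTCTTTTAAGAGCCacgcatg
HIST1H2BC: ccccaaaGGCTCTTTTAAGAGCCacccaga
HIST1H2BG: actcaaaGGCTCTTTTCAGAGCCactcaag
HIST1H2AC: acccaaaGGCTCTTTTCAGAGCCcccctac
HIST1H2AG: aaccaacGGCTCTTTTCAGGGCCacccacg
HIST1H2AI: aaccaaaGGCTCTTTTCAGAGCCacctaca
HIST4H4: tccaaaaGGCCCTTTTCAGGGCCcccaaac
HIST1H4H: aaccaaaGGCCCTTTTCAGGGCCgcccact
HIST2H2BE, HIST1H2BG, HIST1H2AC and HIST1H2AI share the same core, HIST1H2BD and HIST1H2BC share another, and HIST4H4 and HIST1H4H, both of class H4, share a core of their own. After the coding sequence, the motif occurred in 20 of the 29 tested members and in 11 of the 34 untested ones. These 31 are among the 45 of 57133 annotated genes that hold it anywhere in a transcript. Of all 206694 annotated transcripts, 63 hold it (0.0305%). Among tested members with the motif, the annotated transcript ran on for a median of 1094 bases after it, against 86 bases for the untested ones. A polyadenylation signal (AATAAA or ATTAAA) followed the stem-loop in 14 of the 20 tested and in 6 of the 11 untested members with the motif. It was searched anywhere in the annotated sequence after the stem-loop, so longer sequences offer more places for a match. The counts were not adjusted for that length, and use of the signal was not tested. Searched after the coding sequence instead, the signal was found in 18 tested members, with a median of 24.88 normalized reads per kb of exon. The 11 without it, among them models that stop at the coding sequence, had a median of 75.97. The annotated transcripts of HIST1H3D, HIST2H2AC, HIST1H2BK and HIST1H1C stop at the end of the coding sequence, so no stem-loop could be matched in them.

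Promoter windows, the 250 bases before an annotated start, were available from RefSeq (GRCh38.p14) for 24 of the 29 tested members. They are shown for HIST1H3D, called higher with FC-A, and for HIST2H2AC and HIST4H4, called higher with IFNa, in the direction of transcription, with capitals on both strands' matches to CCAAT, to TATAAA and to the octamer ATTTGCAT. HIST1H3D has a pair of annotated starts, upstream (chr6:26199294-26199543, minus strand) and near the coding sequence (chr6:26197287-26197536, minus strand). The window of HIST2H2AC (chr1:149886668-149886917, plus strand) covers most of that of HIST2H2BE, which is transcribed the other way. HIST4H4 lies on chromosome 12 (chr12:14771132-14771381, minus strand).
HIST1H3D, upstream start: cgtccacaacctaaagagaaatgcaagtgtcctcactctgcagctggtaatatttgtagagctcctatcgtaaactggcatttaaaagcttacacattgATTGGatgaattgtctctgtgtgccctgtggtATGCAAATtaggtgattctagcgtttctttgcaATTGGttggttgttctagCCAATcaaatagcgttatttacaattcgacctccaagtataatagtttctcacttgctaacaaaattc
HIST1H3D, near start: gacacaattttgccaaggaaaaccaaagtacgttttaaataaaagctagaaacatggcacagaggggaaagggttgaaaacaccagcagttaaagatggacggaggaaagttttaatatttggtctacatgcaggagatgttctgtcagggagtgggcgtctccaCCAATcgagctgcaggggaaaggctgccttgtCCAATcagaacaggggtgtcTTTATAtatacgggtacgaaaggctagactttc
HIST2H2AC: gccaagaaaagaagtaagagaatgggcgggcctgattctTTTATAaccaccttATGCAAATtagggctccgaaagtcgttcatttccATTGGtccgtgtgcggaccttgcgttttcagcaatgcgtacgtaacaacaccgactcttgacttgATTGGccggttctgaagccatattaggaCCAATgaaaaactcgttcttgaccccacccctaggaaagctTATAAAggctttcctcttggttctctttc
HIST4H4: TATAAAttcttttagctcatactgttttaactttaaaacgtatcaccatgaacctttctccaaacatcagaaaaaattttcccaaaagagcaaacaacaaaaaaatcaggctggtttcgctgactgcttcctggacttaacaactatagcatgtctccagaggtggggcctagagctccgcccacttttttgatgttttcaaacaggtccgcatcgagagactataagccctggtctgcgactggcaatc
The upstream HIST1H3D window is identical to the one RefSeq gives for the H2A gene H2AC7, and HIST1H3D values are uncertain where transcripts of both overlap. CCAAT was present in 83.3% of the 24 tested members with a window, against 32% of all 35116 windows. TATAAA was present in 62.5% against 10.7%, and the octamer in 41.7% against 1.63%. The interferon response core, GAAA, any 2 bases and GAAA, was found in 1 of the 24, HIST1H3H (4.17%, against 3.02% of all windows), and the STAT core TTCNNNGAA in 0, against 6.57%. These are matches of letters in a window and say nothing of binding. A member was counted if any of its windows matched, while the share over all windows counts each window singly. Head-to-head neighbours can share most of a window, so their matches are not separate.

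A few genes held most of the histone reads. HIST1H2BK, which encodes an H2B, took 45.7% of the summed normalized reads of the 63 genes, HIST1H1C, the gene of linker histone H1.2, took 11.6%, HIST1H2AC 10.2% and HIST2H2BE 8.77%, and the top 9 genes together held 90.7%. Per kb of annotated exon, HIST1H2BK had 10359.6 normalized reads and HIST1H1C 1564, both over coding sequence alone, against 528.1 for HIST1H2AC and 345.1 for HIST2H2BE over longer models. HIST1H3H led class H3 with a mean of 62.9 normalized reads and HIST1H4H class H4 with 205.6. Just inside the minimum mean were HIST1H1E (15.2) and HIST2H2BD (15.4), the latter annotated as a pseudogene. Just outside it were HIST2H3D (9.79) and HIST3H2BB (8.57). Many of these genes encode nearly the same protein, and the sources used here do not say how reads that fit several copies were assigned, so single values are uncertain where copies share sequence.

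Summed over the 63 genes, normalized reads were 9190, 8495 and 10360.1 in Combination, 7670, 7603 and 8311 in IFNa, 8581, 9169 and 10211.7 in FC-A, and 8021, 7704 and 8324 in DMSO. In the scaling as deposited, all libraries with FC-A, alone or in the Combination, lay above all libraries without it. The ratio of means was 1.17 for Combination, 0.981 for IFNa and 1.16 for FC-A, each over DMSO. Without HIST1H2BK the other 62 genes gave 1.241 for Combination, 0.957 for IFNa and 1.25 for FC-A. Over all genes, normalized reads summed higher in every IFNa and Combination library than in every FC-A and DMSO library. The ratios of Combination and IFNa over DMSO therefore depend on the scaling. As a share of these totals, Combination replicates 1 and 2 lay below DMSO replicate 3. Totals were similar between FC-A and DMSO, and between Combination and IFNa. By class, the FC-A to DMSO ratio of sums was 1.41 for H3, 1.27 for H4, 1.26 for H2A, 1.15 for H2B and 1.07 for H1. No p was computed for these sums. In bulk RNA, more cells that make these transcripts and more of them per cell cannot be told apart.

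FC-A alone went with higher values across the histone genes, most of them small and not past the threshold singly. All 29 tested members had a positive log2 fold change of FC-A over DMSO, against 48.4% of all tested genes, with a median of 0.41 against -0.00 for all genes. Values ran from 0.05 for HIST1H4K to 1.05 for HIST1H3D. A single member, higher, was called by limma at adjusted p under 0.05, where 0.3% of all genes were called, 0.156% higher and 0.144% lower, and 13 had an unadjusted p under 0.05, where 8.61% of all genes did. In 11 members all FC-A libraries lay above all DMSO libraries, against 7.81% of all genes, and the reverse occurred in 0, against 7.44%. Class medians were 0.56 for H3, 0.53 for H2A, 0.42 for H2B, 0.35 for H4 and 0.19 for H1.

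The called member was HIST1H3D, which encodes histone H3.1. It had 58.0, 48.6 and 63.0 normalized reads in Combination, 23.5, 27.6 and 33.8 in IFNa, 42.8, 49.3 and 51.5 in FC-A, and 27.2, 21.05 and 20.02 in DMSO. The 6 libraries with FC-A all lay above the 6 without it, whether or not IFNa was present. The change of FC-A over DMSO was 2.07-fold (log2 1.05, SE 0.20, limma adjusted p = 0.0449), on 48, 51 and 56 reads in FC-A and 30, 22 and 21 in DMSO. The call rests on little margin: over the alternatives the adjusted p ran from 0.0142 to 0.246, and it stayed under the threshold without FC-A replicate 1 or IFNa replicate 3 but not without any 1 of the other 10 libraries.

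**Figure D1:**
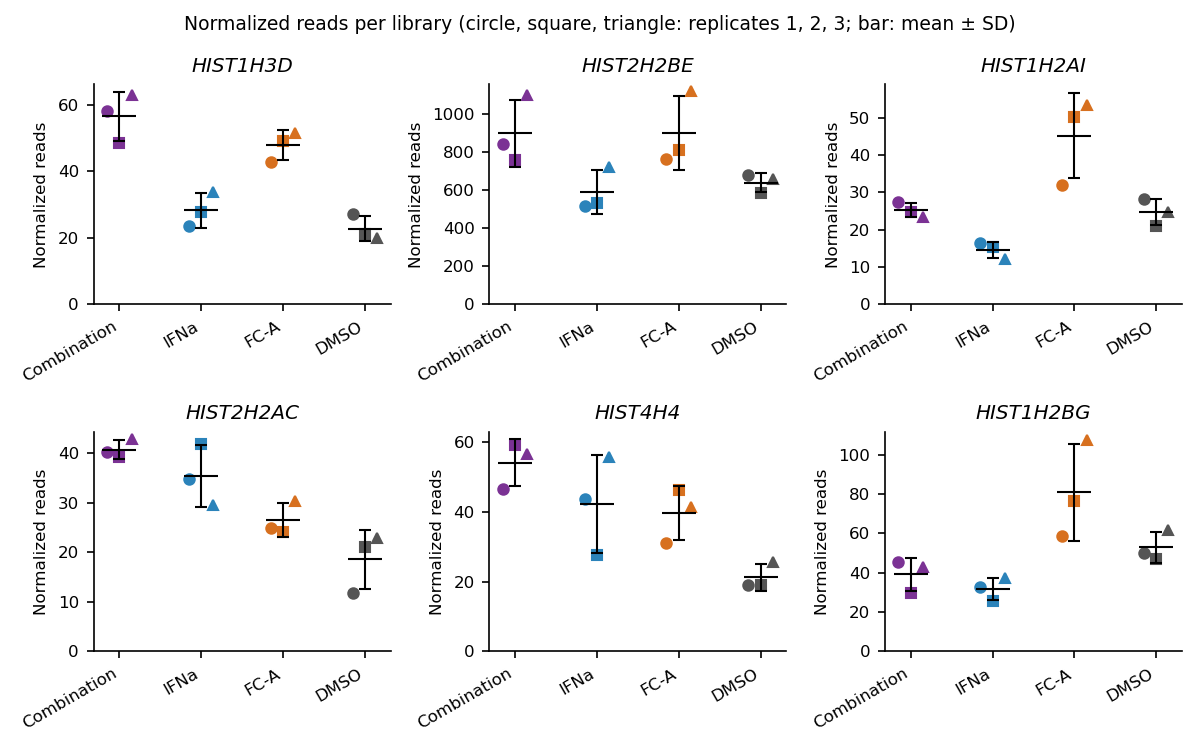
Normalized reads per library (y axis, from 0) of 6 members in Combination, IFNa, FC-A and DMSO, with symbols for replicates 1, 2 and 3 and the mean ± SD of 3 libraries in black. HIST1H3D is 48.6 or more in all Combination libraries and 42.8 or more in all FC-A libraries, against 33.8 or less in IFNa and 27.2 or less in DMSO.

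HIST2H2BE, an H2B gene of the HIST2 cluster, had 842.2, 759.1 and 1098 normalized reads in Combination, 517.1, 533.0 and 721.2 in IFNa, 763.6, 811.4 and 1123 in FC-A, and 677.5, 583.6 and 656.0 in DMSO. Each FC-A library lay above each DMSO library and each Combination library above each IFNa library. The log2 fold change was 0.47 for FC-A over DMSO (SE 0.16, limma adjusted p = 0.377) and 0.61 for Combination over IFNa (SE 0.16, limma adjusted p = 0.151). HIST1H2AI, an H2A gene, had 27.4, 24.9 and 23.5 normalized reads in Combination, 16.3, 15.2 and 12.002 in IFNa, 32.1, 50.2 and 53.3 in FC-A, and 28.1, 21.05 and 24.8 in DMSO. Here too the groups with FC-A did not overlap their counterparts without it, while the Combination libraries lay within the range of the DMSO libraries. HIST1H2BK, the most counted member, moved little, at 4152, 3979 and 4197 in Combination, 3806, 3872 and 3792 in IFNa, 3989, 4040 and 4148 in FC-A, and 3839, 3681 and 3868 in DMSO.

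The effect of FC-A could be measured a second time in cells that also received IFNa. Its fold changes come from other libraries than those of FC-A over DMSO. The limma p-values of both comparisons share a spread pooled over all libraries, so they are not independent. Of the 29 members, 27 had a positive log2 fold change of Combination over IFNa, against 51.4% of all genes, with a median of 0.38. The exceptions were HIST1H3E (-0.37) and HIST1H4K (-0.14), which like all other members were positive for FC-A over DMSO. None was called by limma, where 0.331% of all genes were, 0.138% higher and 0.194% lower, with 11 at an unadjusted p under 0.05, where 13.2% of all genes were. On the recovered reads edgeR called 0 members and 55 of all genes, and DESeq2 called 3 members and 240 of all genes. The authors' deposited table lists 2 members and 231 of all genes. Without IFNa replicate 3 limma called 2 members and 510 of all genes. Those of DESeq2 were HIST2H2BE (adjusted p = 0.0221), HIST1H2AC (0.0337) and HIST1H2BC (0.0423).

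Groups did not overlap in the upward direction in 11 members for Combination over IFNa, against 9.64% of all genes. In the downward direction this held for HIST1H3E alone, against 6.75%. For 7 members, namely HIST1H2AG, HIST1H2AI, HIST1H2BD, HIST1H2BK, HIST1H3D, HIST1H3G and HIST2H2BE, the libraries with FC-A lay above those without it in both comparisons. HIST1H3D had a log2 fold change of 0.98 for Combination over IFNa (SE 0.20, limma adjusted p = 0.059). The adjusted p ranged from 0.0115 to 0.296 over the alternatives. Apart from the fit with the replicate number as a block, which gave the lowest value, it was under the threshold without IFNa replicate 3 (0.021), with replicate 3 of every group left out (0.0286) and at a pseudocount of 8 (0.0448).

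**Figure D2:**
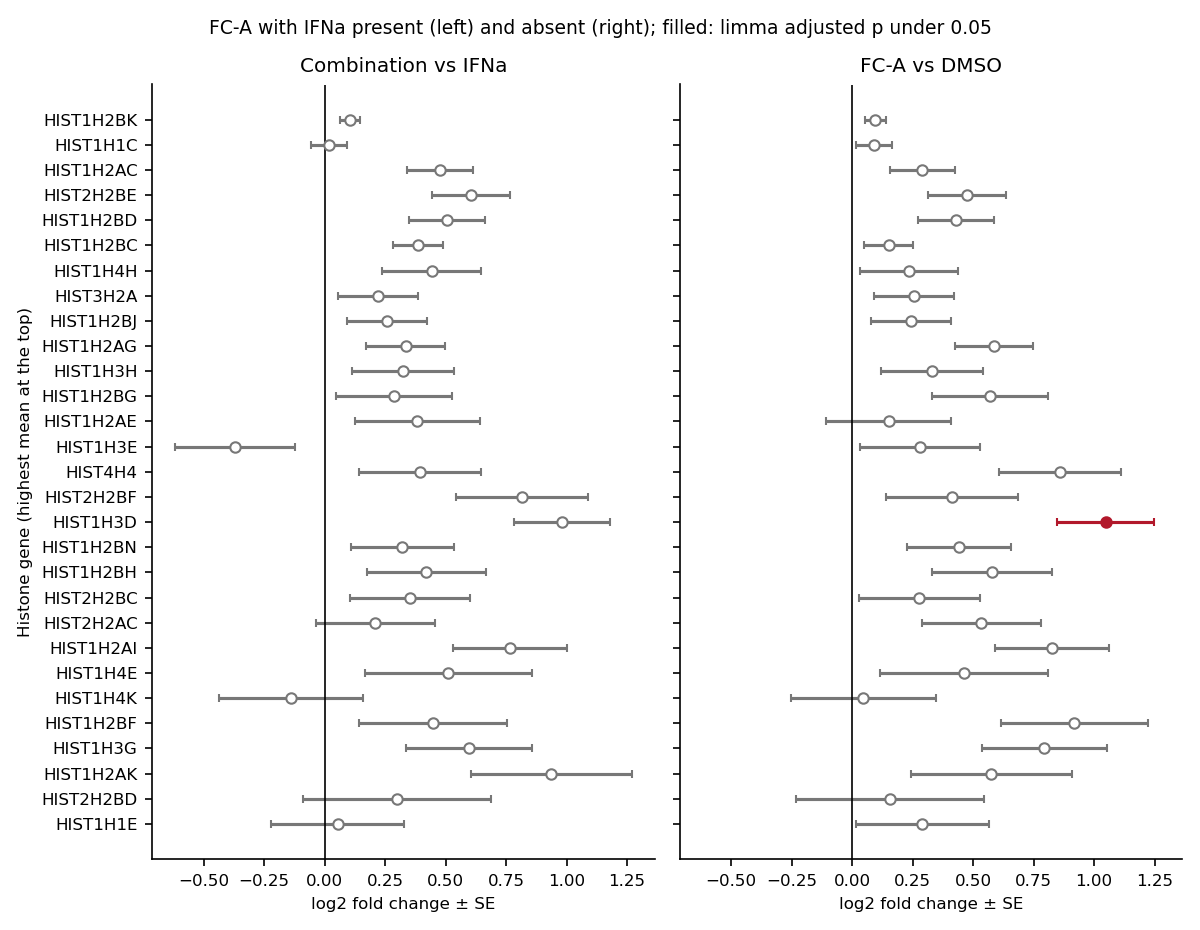
Log2 fold change ± SE (x axis) of the 29 tested histone genes, ordered by mean level with the highest at the top, for Combination over IFNa (left) and FC-A over DMSO (right). Filled points passed the limma threshold, which only HIST1H3D did (FC-A over DMSO, 1.05), while 27 genes on the left and 29 on the right lie above 0.

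The mean of both FC-A effects, a contrast added after the data were seen, had 4 members past the threshold in limma, all higher, where 1.96% of all genes were called, 1.12% higher and 0.844% lower. An unadjusted p under 0.05 was seen in 19 members, against 17.1% of all genes, and a positive value in 27 of 29, against 50.1%. HIST1H3D had a log2 value of 1.01 (SE 0.14, adjusted p = 0.00212), with an adjusted p of at most 0.00974 in each alternative that gave one. The others were HIST1H2AI (0.80, SE 0.17, adjusted p = 0.0273), HIST2H2BE (0.54, SE 0.11, adjusted p = 0.0293) and HIST1H2BD (0.47, SE 0.11, adjusted p = 0.048). These 3 depended on single libraries, and their adjusted p reached 0.0914, 0.102 and 0.139. The count of calls was 1 without DMSO replicate 1 or 2, FC-A replicate 2, IFNa replicate 1 or 2, or Combination replicate 1, 2 without DMSO, FC-A or Combination replicate 3, 8 without FC-A replicate 1 and 9 without IFNa replicate 3. Over all genes the calls of the same contrast numbered 314, with 902 without FC-A replicate 1, 953 without IFNa replicate 3 and a range of 132 to 953 over the libraries left out. This contrast uses the same libraries as the comparisons above and adds no separate evidence.

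Replicate 3 tended to be the highest library for these genes. Against replicates 1 and 2 it was higher in 26 of the 29 members, against 50.3% of all genes, with a median log2 value of 0.27 for members and 0.00 for all genes. The limma threshold was passed by 7 members (24.1%), all higher, and by 22.3% of all genes in either direction, 9.77% higher. Replicate 3 was the highest library for 17 of the 29 members in Combination, 21 in IFNa, 23 in FC-A and 18 in DMSO, against 38.4%, 38.4%, 38.2% and 35.2% of all genes in Combination, IFNa, FC-A and DMSO. With replicate 3 left out of every group, the log2 fold change stayed positive in 29 of 29 members for FC-A over DMSO, against 48.4% of all genes, and in 26 of 29 for Combination over IFNa, against 50.8%. Called members were then 0 for FC-A over DMSO, where 0.838% of all genes were called, and 4 for Combination over IFNa, where 7.42% of all genes were called.

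IFNa moved single histone genes in both directions, without a common shift. Of the 29 members, 12 had a positive log2 fold change of IFNa over DMSO, against 49.2% of all genes, and the median was -0.09. Calls by limma were 2 higher, where 25.4% of all genes were called higher, and 3 lower, where 21.5% were called lower. In either direction 17.2% of members were called, against 46.9% of all genes, and 6 had an unadjusted p under 0.05, against 53.6%; these differences were not tested. Groups did not overlap in 3 members upward, against 30.4% of all genes, and in 3 downward, against 27.9%. Quantile scaling moved the median of all genes to -0.10 and the split of all calls to 2975 higher and 5157 lower, against 4067 and 3440, and gave 2 members higher and 5 lower.

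HIST2H2AC, an H2A gene, had 40.1, 39.1 and 42.7 normalized reads in Combination, 34.7, 41.9 and 29.5 in IFNa, 24.9, 24.1 and 30.4 in FC-A, and 11.8, 21.05 and 22.9 in DMSO. All IFNa libraries lay above all DMSO libraries. It rose 1.91-fold with IFNa over DMSO (log2 0.93, SE 0.25, limma adjusted p = 0.00657, 0.00322 to 0.0322 over the alternatives). HIST4H4, the lone gene of its cluster, had 46.4, 59.2 and 56.6 in Combination, 43.9, 27.6 and 55.6 in IFNa, 31.2, 46.4 and 41.4 in FC-A, and 19.05, 19.1 and 25.7 in DMSO. DMSO was below every other group without overlap, and IFNa spread widely. The change of IFNa over DMSO was 1.89-fold (log2 0.92, SE 0.25, limma adjusted p = 0.00851, 0.00129 to 0.0414 over the alternatives).

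The members that fell with IFNa were HIST1H2AK, HIST1H2AI and HIST1H2BG. HIST1H2AK had 17.9, 10.7 and 17.1 normalized reads in Combination, 6.12, 5.71 and 10.9 in IFNa, 18.7, 24.1 and 28.5 in FC-A, and 18.1, 10.5 and 19.1 in DMSO, so that IFNa and DMSO overlapped. Its log2 fold change of IFNa over DMSO was -0.99 (SE 0.33, limma adjusted p = 0.0251). HIST1H2BG, an H2B gene, had 45.4, 29.6 and 42.7 in Combination, 32.6, 25.7 and 37.1 in IFNa, 58.8, 76.3 and 107.6 in FC-A, and 49.9, 46.9 and 62.0 in DMSO. IFNa libraries lay below DMSO libraries, and Combination libraries below FC-A libraries. The log2 fold change of IFNa over DMSO was -0.72 for HIST1H2BG (SE 0.24, limma adjusted p = 0.0235) and -0.73 for HIST1H2AI (SE 0.24, limma adjusted p = 0.0206). HIST1H2AI lost its call without DMSO replicate 1 or 3 or IFNa replicate 3 (adjusted p up to 0.133 over the alternatives), HIST1H2AK without DMSO replicate 1 or 3 or IFNa replicate 1 or 2 (up to 0.0962), and HIST1H2BG without DMSO replicate 3 or IFNa replicate 2 (up to 0.095). The count of called members was 3 without DMSO replicate 1 or IFNa replicate 2 and 2 without DMSO replicate 3. Over all genes these fits called 6441, 6736 and 6183, against 7507 with all libraries.

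In the presence of FC-A the contrast of Combination over FC-A had 1 member called higher, where 26.6% of all genes were, and 4 lower, where 22.3% were, or 48.9% in either direction. An unadjusted p under 0.05 was seen in 8 members, against 55% of all genes, and a positive log2 fold change in 13, against 49%. Groups did not overlap in 2 members upward, against 28.4% of all genes, and in 7 downward, against 25.4%. Quantile scaling gave 2 members higher and 5 lower, and 3103 of all genes higher and 5407 lower, against 4255 and 3563 as deposited, with a median of all genes of -0.11. TMM scaling gave 0 members higher and 5 lower. HIST1H2BG fell to 0.498-fold (log2 -1.01, SE 0.24, limma adjusted p = 0.00317) and was called in each alternative run. HIST1H2AI fell by 0.78 on the log2 scale (SE 0.24, limma adjusted p = 0.0131) and lost the call without FC-A replicate 2 or 3. HIST1H2AG, another H2A gene, had 64.4, 75.8 and 70.5 normalized reads in Combination against 104.2, 98.5 and 88.3 in FC-A. Its log2 value was -0.46 (SE 0.16, limma adjusted p = 0.0299), lost without FC-A replicate 1 or 2 or Combination replicate 1 or 3.

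HIST1H1C had 900.3, 862.1 and 1055 normalized reads in Combination, 889.3, 926.1 and 960.2 in IFNa, 1033, 1146 and 1155 in FC-A, and 1025, 1033 and 1066 in DMSO. IFNa libraries lay below DMSO libraries, while Combination replicate 3 reached into the FC-A range. It fell by 0.25 on the log2 scale for Combination over FC-A (SE 0.07, limma adjusted p = 0.0135), a call lost without FC-A replicate 2 or Combination replicate 1 or 2, and by 0.17 for IFNa over DMSO without a call (SE 0.07, limma adjusted p = 0.0735). HIST1H4H was the member called higher, at 229.0, 233.3 and 363.0 in Combination against 163.1, 162.3 and 241.0 in FC-A (log2 0.53, SE 0.20, limma adjusted p = 0.0434). The groups overlapped through FC-A replicate 3, and the call was lost without DMSO replicate 1 or 2, FC-A replicate 1 or 2, or Combination replicate 3 (up to 0.204). Counts of called members were 1 without FC-A replicate 2 and 3 without Combination replicate 1 or 3. Over all genes these fits called 6664, 7100 and 7199, against 7818 with all libraries.

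**Figure D3:**
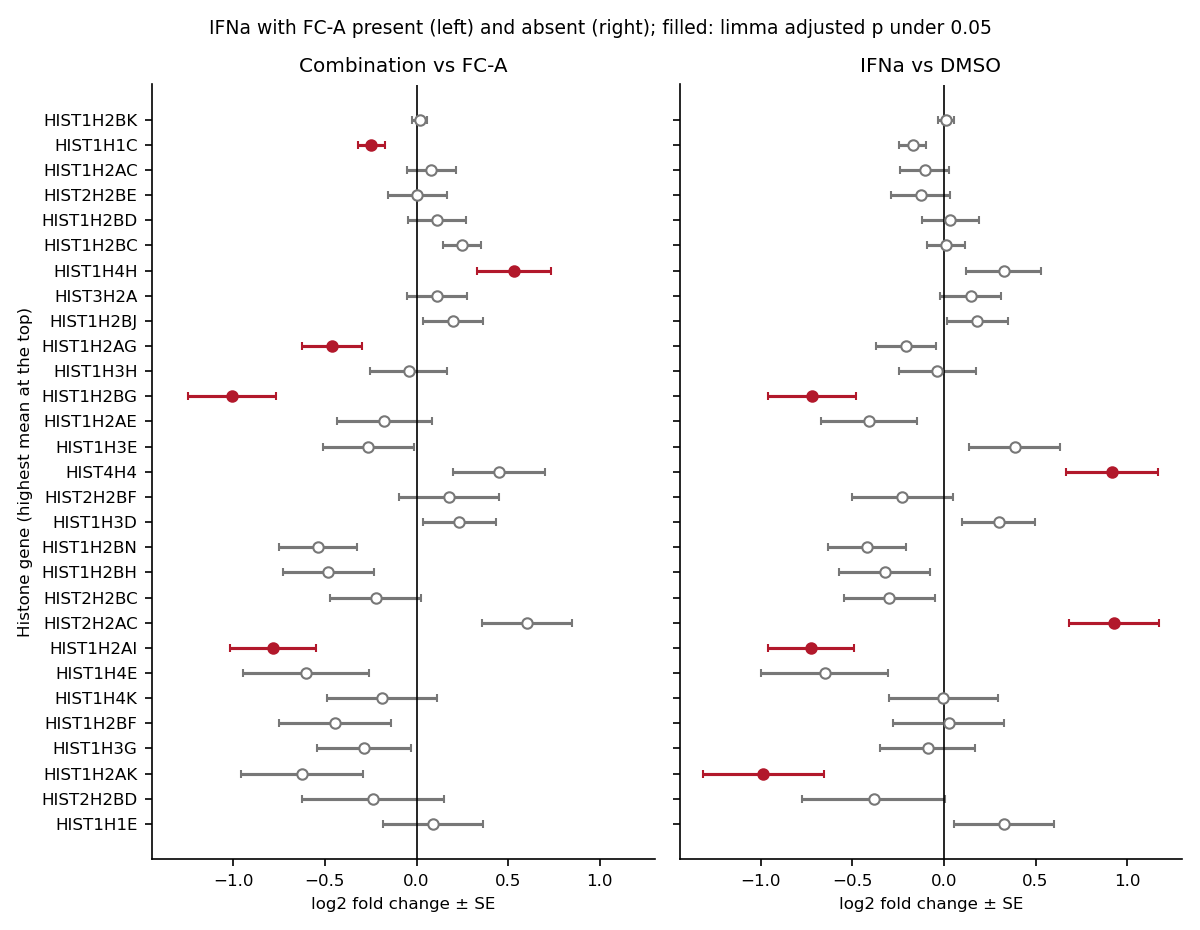
Log2 fold change ± SE (x axis) of the 29 tested histone genes, ordered by mean level with the highest at the top, for Combination over FC-A (left) and IFNa over DMSO (right). Filled points passed the limma threshold, 5 on each side, and HIST1H2BG and HIST1H2AI are among the lower ones in both.

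With both agents, the histone genes called against DMSO were all higher in the scaling as deposited. Combination over DMSO gave 10 members higher, where 26.1% of all genes were called higher, and 0 lower, where 22.2% were called lower, or 48.3% in either direction. An unadjusted p under 0.05 was seen in 12 members, against 54.7% of all genes. Groups did not overlap in 10 members upward, against 31.4%, and in 1 downward, HIST1H2BG, against 29.4%. Quantile scaling, which moved the median of all genes to -0.11, gave 8 members higher and 1 lower, HIST1H1C (log2 -0.26, limma adjusted p = 0.0086), and 3072 of all genes higher and 5479 lower, against 4167 and 3557 as deposited. Positive log2 fold changes were seen in 21 of 29 members, against 48.8% of all genes, and the median was 0.29. The DMSO libraries are shared with the comparisons of FC-A and of IFNa alone, so these values are not independent of those. Of the 10, 5 are H2B genes, 2 are H2A, 2 are H4 and 1 is H3.

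HIST4H4 rose 2.48-fold in Combination over DMSO (log2 1.31, SE 0.25, limma adjusted p = 0.000661), HIST1H3D 2.43-fold (log2 1.28, SE 0.20, limma adjusted p = 0.000107) and HIST2H2AC 2.20-fold (log2 1.14, SE 0.25, limma adjusted p = 0.00155). HIST1H4H, at 138.8, 155.9 and 180.2 normalized reads in DMSO, rose 1.70-fold (limma adjusted p = 0.00653). HIST1H2BC, an H2B gene, had 375.7, 342.2 and 443.1 in Combination against 289.3, 277.5 and 309.9 in DMSO, a 1.32-fold rise (limma adjusted p = 0.0056). These 5 were called in each alternative that gave them an adjusted p. HIST1H2BD had 483.4, 434.6 and 668.4 in Combination, 350.8, 323.6 and 431.0 in IFNa, 420.5, 459.8 and 576.7 in FC-A, and 368.2, 323.4 and 382.3 in DMSO. Combination was above DMSO and above IFNa without overlap, and FC-A above DMSO.

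The rise over DMSO was 1.45-fold for HIST1H2BD (limma adjusted p = 0.0113), 1.39-fold for HIST2H2BE (limma adjusted p = 0.0253) and 1.29-fold for HIST1H2AC (limma adjusted p = 0.0347). HIST1H2BD and HIST2H2BE lost the call without DMSO replicate 2 or Combination replicate 3, and HIST1H2AC without DMSO replicate 1 or 2 or Combination replicate 1 or 3. HIST1H2AC had 1026, 838.4 and 1228 normalized reads in Combination against 781.8, 727.1 and 856.2 in DMSO, and its groups overlapped. HIST1H2BK rose 1.08-fold (log2 0.11, SE 0.04, limma adjusted p = 0.0363), but the value was -0.08 with quantile scaling, and the adjusted p missed the threshold in 12 of 25 alternatives. The count of called members was 6 without DMSO replicate 2 or Combination replicate 3. Over all genes these fits called 6630 and 7029, against 7724 with all libraries.

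**Figure D4:**
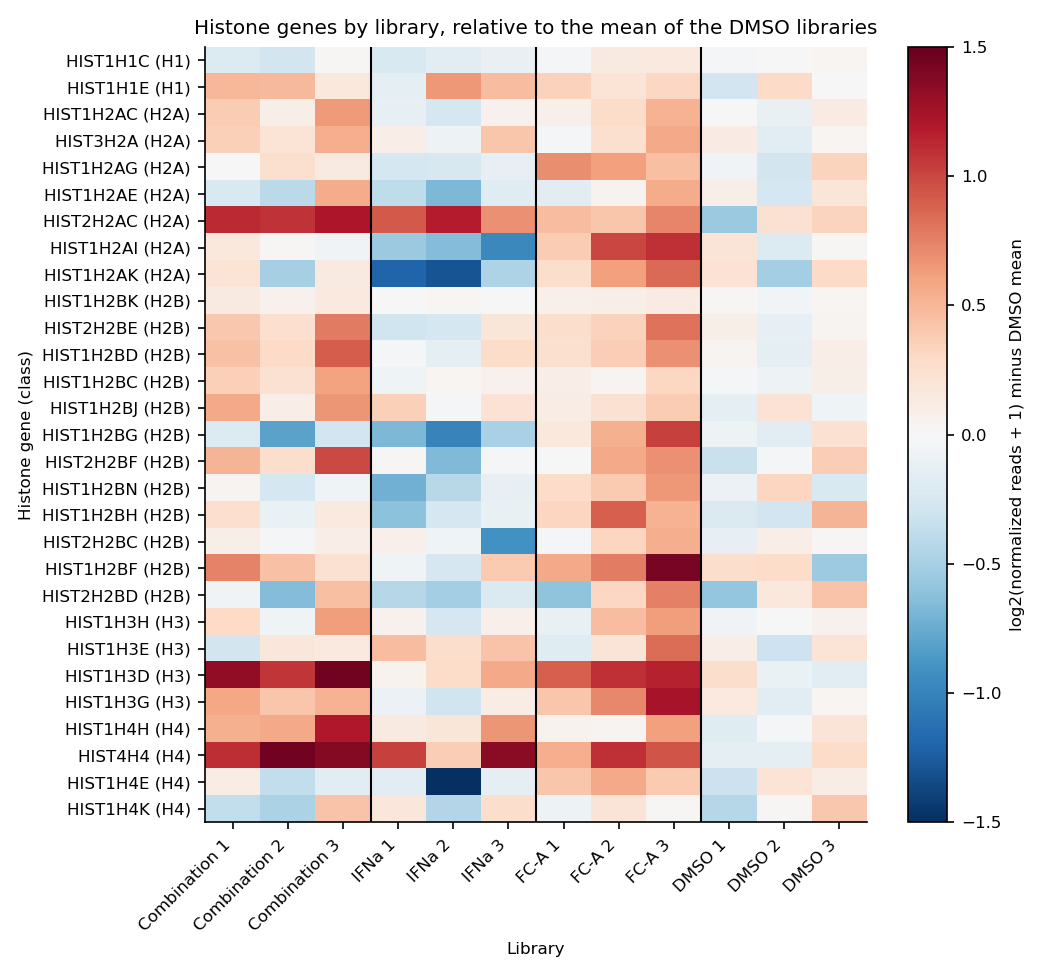
Each row is a tested histone gene, grouped by class, and each column a library, from Combination through IFNa and FC-A to DMSO, coloured by log2(normalized reads + 1) minus the mean of the DMSO libraries. HIST1H3D is red in all libraries with FC-A, HIST2H2AC and HIST4H4 in all treated groups, and HIST1H2AI and HIST1H2BG are blue in all IFNa libraries.

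The interaction asks whether the FC-A effect differed with IFNa present. No member was called by limma, where 0% of all genes were, none had an unadjusted p under 0.05, where 3.92% of all genes did, and edgeR and DESeq2 called 0 members. A positive value was seen in 13 of 29 members, against 52.2% of all genes. The median over members was -0.03 on the log2 scale and the values ran from -0.65 to 0.40. A miss of the threshold at 3 libraries a group does not show that the effects were equal.

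The 34 untested members gave few reads, with means between 0.159 and 9.79 normalized reads and 11 of them under 1. Their sum was 127.7, 124.3 and 128.1 in Combination, 85.7, 80.9 and 110.2 in IFNa, 110.5, 128.5 and 125.1 in FC-A, and 88.9, 104.3 and 84.9 in DMSO. Each library with FC-A lay above the highest without it, by little for FC-A replicate 1 over IFNa replicate 3. The mean of FC-A exceeded that of DMSO in 21 of the 34, and the mean of Combination that of IFNa in 20. No test was made on them.

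Several histone genes stand in head-to-head pairs, an H2A gene and an H2B gene transcribed away from each other. HIST2H2BE and HIST2H2AC start 322 bases apart in GENCODE 29 and share most of the promoter window shown above. For IFNa over DMSO the log2 fold change was -0.13 for HIST2H2BE and 0.93 for HIST2H2AC, while for FC-A over DMSO it was 0.47 and 0.53. HIST1H2BG and HIST1H2AE, 282 bases apart, had -0.72 and -0.41 for IFNa over DMSO and 0.57 and 0.15 for FC-A over DMSO. HIST1H2BC and HIST1H2AC, 218 bases apart, had 0.01 and -0.11 for IFNa, and 0.15 and 0.29 for FC-A. HIST1H2BJ and HIST1H2AG, 291 bases apart, had 0.18 and -0.21 for IFNa, and 0.24 and 0.59 for FC-A. Differences within pairs were not tested.

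Lists of other genes that make, end or handle histone messages, and of further histone and S phase genes, were read beside the members. For FC-A over DMSO, where 0.3% of all genes were called, and for Combination over IFNa, where 0.331% were, limma called 0 of 24 genes of stem-loop processing and decay, 0 of 17 of the polyadenylation machinery, 0 of 11 replication-independent histone genes, 0 of 21 histone chaperones, 0 of 25 S phase genes and 0 of 13 other genes of the 6p22 region. Counts of 0 in lists of this size do not set them apart from that background. In the mean of both FC-A effects, where 1.96% of all genes were called, the linker histone gene H1F0 rose 1.18-fold (limma adjusted p = 0.00557) and CPSF3, the gene of the nuclease that cuts histone and poly(A) pre-mRNAs, fell to 0.913-fold (limma adjusted p = 0.0481). In that contrast 0 genes of the S phase, chaperone, polyadenylation and 6p22 lists were called. The S phase genes had a median log2 value of -0.09 for FC-A over DMSO and -0.21 for Combination over IFNa, with 3 and 0 of 25 positive. In the list of CDK inhibitors, D cyclins and related genes, 1 of 11 was called in each comparison, CDKN1A, the gene of the cell cycle inhibitor p21. It rose 1.34-fold with FC-A over DMSO (limma adjusted p = 0.0183) and 1.32-fold in Combination over IFNa (limma adjusted p = 0.0273). In the mean of both effects 2 of the 11 were called, CDKN1A (1.33-fold, limma adjusted p = 0.0007) and CDKN2B, another CDK inhibitor gene (1.23-fold, limma adjusted p = 0.00609).

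IFNa did change genes of these lists, where 25.4% of all genes were called higher and 21.5% lower. Of the stem-loop processing and decay genes, 10 of 24 were higher and 1 lower for IFNa over DMSO, among them the exonuclease gene XRN1 (4.85-fold), ZCCHC6, a uridylyl transferase (1.30-fold) and the helicase gene UPF1 (1.27-fold). In the 6p22 region around the HIST1 cluster 5 of 13 other genes were higher and 2 lower, with BTN3A3 (3.73-fold) and BTN3A1 (3.30-fold), of the butyrophilin family, and TRIM38 (3.21-fold) in front. Among replication-independent histone genes 2 of 11 were higher and 6 lower, with H3F3B, an H3.3 gene, at 1.35-fold, H2AFY2 at 0.641-fold and H1FX at 0.746-fold. HIRA, the gene of a chaperone that deposits the H3.3 variant, rose 1.93-fold, and 3 of 21 chaperones were higher and 3 lower. In the list of CDK inhibitors, D cyclins and related genes, 5 of 11 were higher and 4 lower for IFNa over DMSO. There CDKN1A rose 3.76-fold, more than with FC-A, CCND1 rose 2.68-fold and BTG2 fell to 0.387-fold. Of the S phase genes 1 was higher and 4 lower for IFNa over DMSO, and 1 was higher and 10 lower for Combination over DMSO, where 26.1% of all genes were called higher and 22.2% lower, with the cyclin gene CCNA2 at 0.594-fold (limma adjusted p = 1.83e-05). In the same comparison 2 of 11 replication-independent histone genes were higher and 7 lower. The linker histone gene H1F0 rose 1.42-fold (limma adjusted p = 3.64e-06), while H2AFY2 fell to 0.612-fold and CENPA to 0.7085-fold.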

How the data were processed

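Poly(A) RNA was sequenced from 12 libraries in 4 groups of 3, made from 100 ng of RNA each with a stranded kit, per the labels' protocols. The signal values deposited by the authors are gene counts divided by 1 factor per library, and multiplying back gave whole reads for 100% of values (tolerance 0.01). The authors' deposited tables hold log2 fold changes with their p-values and a test score, the score not being used here. Per the submitters' processing notes the build was hg19, and the tools included DESeq2 1.24.0, the aligner STAR 2.7.3, bcl2fastq 2.20 and FastQC. The counting program, its handling of strand and shared reads, and the annotation are not stated in these sources.

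The main test was limma 3.58.1 (R 4.3.3) with a variance trend on log2(normalized reads + 1), which understates changes of genes with few reads. It used 4 group means over 12 libraries, was two-sided and adjusted p by the Benjamini-Hochberg method over 15990 genes with a threshold of 0.05. Linear folds were computed from the log2 values. The results were recomputed with quantile or TMM scaling, without the trend, with pseudocounts of 8 or 0.5, with a mean of 50 as the filter or none, on the compared groups alone, with a fold of 1.5 required, with a replicate block, without each library in turn, without replicate 3 of all groups, from the authors' deposited tables, and with edgeR 4.0.16 and DESeq2 1.42.0 on the recovered reads. The main limma fit alone was tried on simulated counts, for FC-A over DMSO only, with the same spread set for all genes and no replicate effect. The other fits and comparisons were not tried in this way.

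The members, gene lists and tests were chosen with earlier results of these data known. Members named are HIST1H3D, HIST2H2AC, the highest of each class, up to 8 called per comparison with the smallest p, and the 2 on each side of the minimum mean. The head-to-head pairs, the exceptions in sign and the members without overlap were named after their values were seen. From other lists up to 3 called genes with the largest change were taken. All 63 members matched GENCODE 29 (GRCh38) by symbol, 30 of them with the same gene ID, and 49 had a RefSeq promoter window. No coordinates of the authors' build were used.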

Additional observations from a re-analysis of the deposited data

How the results depend on the processing

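Over all alternatives the log2 fold changes of the named members kept direction and side of the threshold in 683 cases, lost the call in 111, gained it in 11 and changed sign in 5. The sign changed for HIST1H2BK, Combination over DMSO, with quantile scaling (-0.083), and for the HIST1H3D interaction with replicate 3 of every group left out (0.12) and without DMSO replicate 3, IFNa replicate 3 or Combination replicate 2 (0.015, 0.065 and 0.037), with a range of -0.197 to 0.065 over single libraries left out. DESeq2 gave no adjusted p to some members, HIST1H3D among them for FC-A over DMSO, and these were left out of the counts.

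Called members numbered 1 for FC-A over DMSO, HIST1H3D, against 0 with no filter, the compared groups only or replicate 3 left out. With single libraries left out the count was 0 to 1. A minimum mean of 50 leaves out HIST1H3D (mean 38.9) and DESeq2 gave it no adjusted p, so neither could call this gene. Each called 0 of the other members that it tested. The authors' deposited table called HIST1H3D (log2 1.07, DESeq2 adjusted p = 0.0175). That minimum also leaves out HIST1H2AI, HIST1H2AK, HIST2H2AC and HIST4H4. For IFNa over DMSO there were 5, against 3 with no filter, 1 at a minimum mean of 50, 3 in the authors' deposited table and 2 to 6 with single libraries left out. For Combination over DMSO there were 10, against 4 at a fold of 1.5 and 6 to 11 with single libraries left out. For Combination over IFNa there were 0, against 1 at a pseudocount of 8, 4 with replicate 3 left out, 3 by DESeq2, 2 in the authors' deposited table and 0 to 2 with single libraries left out. For Combination over FC-A there were 5, against 2 at a fold of 1.5, 3 with no filter and 1 to 6 with single libraries left out. For the mean of both FC-A effects there were 4, against 2 at a fold of 1.5, with no filter or at a minimum mean of 50, 8 by DESeq2 and 1 to 9 with single libraries left out.

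A minimum mean of 50 leaves fewer members, of which 13 had positive values for FC-A over DMSO, 13 for Combination over IFNa, 13 for the mean FC-A effect, 10 for Combination over DMSO, 8 for Combination over FC-A and 6 for IFNa over DMSO. The positive count for Combination over FC-A ran from 9 to 17 and for IFNa over DMSO from 10 to 15 with single libraries left out.

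To ask whether replicate numbers pair the libraries, each library's deviations from its group mean were taken over all tested genes. Between same-numbered libraries of the compared groups these deviations correlated at 0.018 to 0.339, positive in every pair but not above 0.1 in each. These values do not settle whether the numbers pair the libraries, and the main fit used no replicate block. Replicate 3 correlated best with its own number in every comparison, and the others did not always. With the replicate block, HIST1H3D had an adjusted p of 0.0115 in limma for Combination over IFNa, and 3 members were called for FC-A over DMSO, 7 for Combination over IFNa and 13 for the mean FC-A effect. Over all genes, FC-A over DMSO gave 48 calls, against 20 with no trend, 26 with the compared groups only, 289 with the block, 134 with replicate 3 left out, 171 by DESeq2, 155 in the authors' deposited table and 16 to 119 with single libraries left out. Combination over IFNa gave 53, against 11, 10, 1009, 1187, 240 and 231 in that order, and 4 to 510. The mean FC-A effect gave 314, against 124 with no trend, 1675 with the block, 1022 with replicate 3 left out, 635 by DESeq2 and 132 to 953 with single libraries left out. The interaction gave 0, against 1 with the block, 1 with replicate 3 left out and 3 by DESeq2. With single libraries left out, calls over all genes were 6183 to 7781 for IFNa over DMSO and 6584 to 8029 for Combination over DMSO. They were 6664 to 8122 for Combination over FC-A. The causes were not tested. HIST1H3D had 21 to 59 reads per library, HIST2H2AC 13 to 44 and the untested genes fewer on average, which limits the precision of their values; whether depth or the spread between libraries set which changes were called was not tested.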
